A study of Mus musculus with 12 samples.

Results

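Transfer RNAs carry amino acids to the ribosome, and each is read by its anticodon. The RNAs described here are the tRNAs of 13 amino acids, alanine (Ala), arginine (Arg), asparagine (Asn), glutamine (Gln), isoleucine (Ile), leucine (Leu), methionine (Met), phenylalanine (Phe), proline (Pro), serine (Ser), threonine (Thr), tryptophan (Trp) and tyrosine (Tyr), with a further name, OTHER, that the file does not resolve to an amino acid. They are the rows of the misc RNA count table that its names place in the tRNA class, other than tRNA-Cys, Gly, Glu, Val, His, Lys and Asp, and rows with identical counts in all 12 libraries were kept once. That left 182 tRNA rows of 4227 rows in the table, from 284 of 4645 rows as deposited, under 14 names. The choice used names and not measured levels, though earlier results of these data were known when it was made. Counts served only to drop identical rows.

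Libraries of small RNA were made from CA1, a subfield of the hippocampus, dissected from C57BL/6J mice aged 3 to 5 months. Kat2a cKO libraries (n = 6) came from mice with Kat2afl/fl and CamKIIα-cre+, so that floxed Kat2a is deleted where the CamKIIα promoter drives Cre, which is in excitatory neurons of the forebrain. Control libraries (n = 6) came from mice with Kat2afl/fl and no Cre. Both groups therefore carry the floxed alleles, and other cells of the tissue keep Kat2a, a histone acetyltransferase. In such bulk tissue, fewer cells of a type and less RNA per cell cannot be told apart. The labels do not say that libraries came from separate animals, so p-values measure the spread between these libraries. Libraries are named below by group and by the number in their title.

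tRNA genes are transcribed by RNA polymerase III, the transcripts are trimmed at both ends, and some genes hold a short intron that a dedicated endonuclease removes. Mature tRNAs are heavily modified and tightly folded, and modified bases stop reverse transcriptase. Reads from tRNAs in small RNA libraries therefore often come from fragments, of which those released by cleavage in the anticodon loop are the best known. The tRNAs of Gly, Glu, Val, His, Lys and Asp are known for stable fragments of that kind. The tRNAs described here are less known for them, and a read count of such a row says nothing by itself of the level of the full-length tRNA.

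The misc RNA table held 1429765 to 5726590 counts per library with identical rows kept once, of which 9767 to 117164 fell in the 182 rows. Kat2a cKO 5 had both of the highest values and Control 2 both of the lowest. In the table of all RNAs, Kat2a itself had 13 reads in the 6 Kat2a cKO libraries (0 to 5 in a library) and 23 reads in the 6 Control libraries (0 to 8 in a library), too few to check the deletion. As a check of the tissue, the summed level of 3 miRNAs known from neurons (miR-9, miR-128 and miR-138) was 51300 to 64310 CPM (read counts scaled to a common library size) in Kat2a cKO and 46860 to 77450 CPM in Control. The same sum for 4 oligodendrocyte miRNAs was 2447 to 4170 CPM in Kat2a cKO, highest in library 4, and 2425 to 4398 CPM in Control, where library 4 had 4321 CPM. For 2 red blood cell miRNAs it was 6154 to 17150 CPM in Kat2a cKO and 3895 to 16990 CPM in Control. For 2 choroid plexus miRNAs it was 3005 to 7137 CPM in Kat2a cKO and 2781 to 6317 CPM in Control. For 4 vascular miRNAs it was 15210 to 23630 CPM in Kat2a cKO and 13060 to 22560 CPM in Control, and for 4 miRNAs of microglia and leukocytes 51.2 to 164 CPM in Kat2a cKO and 73.01 to 182 CPM in Control.

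The 182 rows were a small part of the tRNA reads. They took 3.52% to 6.41% of all tRNA counts in Kat2a cKO libraries (mean 4.77% ± 0.976, SD, n = 6) and 3.33% to 6.04% in Control libraries (mean 4.94% ± 1.13, SD, n = 6). Of all misc RNA counts they took 1.23% ± 0.470 in Kat2a cKO and 1.12% ± 0.365 in Control. The groups overlapped in both shares, and the highest share of misc RNA counts, 2.05%, was that of Kat2a cKO 5, followed by 1.69% in Control 4. Near-identical gene copies held identical or nearly identical counts, so reads that match several copies appear to have been counted at each of them. In 10 of the 14 names the reads of the second row came within 10% of those of the first. The sum of a name's rows therefore counts shared reads repeatedly. Levels of different names are compared below by the most abundant row alone, called row 1, per 100 bases of its length. Row 1 leaves out rows with unlike counts, so it can understate a name whose gene copies differ. The reads of row 2 were 23.0% of those of row 1 for tRNA-Met, 33.5% for tRNA-Arg, 60.1% for tRNA-Ala and 73.6% for OTHER.

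By that measure 4 names had the highest means in both groups. Of these, tRNA-Gln row 1 averaged 1155 ± 635 CPM per 100 bases in Kat2a cKO and 919 ± 396 in Control (SD, n = 6 each). tRNA-Leu averaged 922 ± 280 in Kat2a cKO and 733 ± 428 in Control on the same scale, tRNA-Asn 755 ± 176 in Kat2a cKO and 663 ± 204 in Control, and tRNA-Met 897 ± 946 in Kat2a cKO and 518 ± 293 in Control. Neighbours among these 4 did not differ beyond their spread in Control. tRNA-Arg stood below them, at 207 ± 167 CPM per 100 bases in Kat2a cKO and 169 ± 54.7 in Control. The step from tRNA-Met to tRNA-Arg barely exceeded the spread in Control and lay within it in Kat2a cKO. The order then ran, in Control, through OTHER (130), Thr (69.2), Ser (32.5), Tyr (30.7), Ile (30.0), Pro (29.1), Phe (15.3) and Ala (15.3), each within the spread of the next. tRNA-Trp was the lowest, at 9.61 ± 7.52 CPM per 100 bases in Kat2a cKO and 8.43 ± 1.42 in Control. It lay below tRNA-Ala by barely more than the spread in Control. In Kat2a cKO, where tRNA-Ala was at 20.2 ± 21.7, the step lay within the spread. Summed over rows, tRNA-Gln held 42.4% of the counts of all 14 names, but shared reads are repeated in that sum, so it is not its share of the reads. By row 1 alone tRNA-Gln had 30035 reads over all libraries, next to 26314 for tRNA-Leu and 23310 for tRNA-Met.

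**Figure D1:**
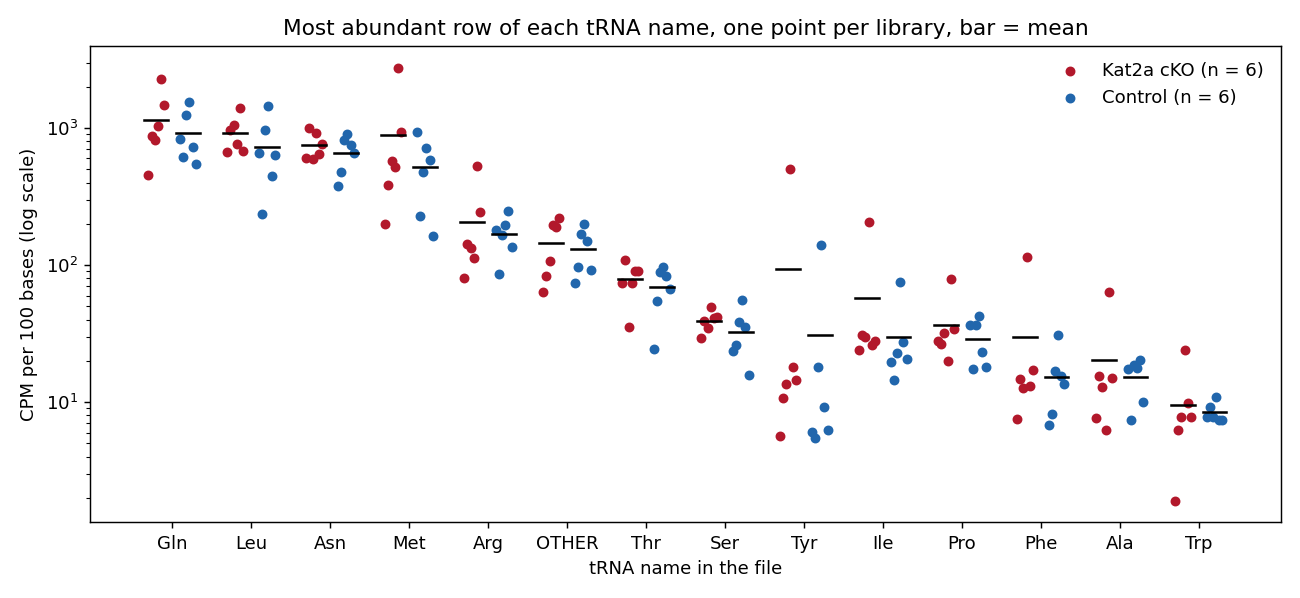
Level of the most abundant row of each tRNA name (x axis, in the order of the Control means), in CPM per 100 bases on a log scale (y axis). Each point is a library, Kat2a cKO left (n = 6) and Control right (n = 6), and bars are means. tRNA-Gln, Leu, Asn and Met have Control means of 518 to 919, and tRNA-Trp one of 8.43. Single Kat2a cKO libraries lie well above the rest of their group for tRNA-Tyr, Ile, Phe, Ala, Pro, Met, Trp and Arg. Control 4 does so for tRNA-Tyr and Ile.

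No tRNA of these names passed the test between Kat2a cKO and Control. Of the 182 rows, 139 had enough reads to be tested and 43 did not. In edgeR's quasi-likelihood test, with Benjamini-Hochberg adjustment over all 860 rows tested, 0 of the 139 passed an adjusted p of 0.05, against 0.0% of all rows. DESeq2 also called 0 of them, where it called 1 of all 860 rows. At an unadjusted p under 0.05 there were 2 of 139 rows, against 6.51% of all 860 rows. With the rows of each name summed, 0 of 14 names passed in edgeR and in DESeq2. Of all 661 rows, 0.0% passed in edgeR and 2 rows passed in DESeq2. At an unadjusted p under 0.05 there were 0 names, against 2.12% of those 661 rows.

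The fitted levels nonetheless leaned to the Kat2a cKO side. Among the 139 rows, 123 had a higher fitted level in Kat2a cKO, against 57.3% of all 860 rows, and the median log2 fold change was 0.31 against 0.05 over all rows. Rows of a name may share reads, so counts of rows here and below are not counts of independent measurements. The shares over all rows include the tRNA rows described here. All 14 sums had a higher fitted level in Kat2a cKO, against 36.6% of all 661 rows, with a median of 0.27 against -0.08. These log2 fold changes ran between 0.04 and 1.38 with standard errors (SE) of 0.25 to 1.11, and adjusted p was 0.905 to 0.956. The lean was not present among libraries numbered 1 to 3, where 63 of 132 rows and 7 of 14 sums were on the Kat2a cKO side, with median log2 fold changes of -0.02 and -0.01. Among libraries numbered 4 to 6 it covered 119 of 149 rows and 14 of 14 sums, with medians of 0.45 and 0.66. Without Kat2a cKO 5 it covered 93 of 144 rows and 8 of 14 sums, with medians of 0.08 and 0.01. With limma's voom and sample quality weights, 106 of 139 rows and 7 of 14 sums were on that side, with medians of 0.26 and -0.03. For comparison, the 7 other tRNA names had log2 fold changes between 0.03 and 0.76 in the same fit.

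The libraries that carried these differences were not the same for every amino acid. tRNA-Tyr, Ile, Phe and Trp were high in Kat2a cKO 4, at 5.255-fold to 27.9-fold of the median of the other 5 libraries. tRNA-Ala (1.515-fold) and OTHER (1.62-fold) were only slightly high there. In Control 4 the 4 names were at 1.64-fold to 17.6-fold, but the other 10 names were at 1.35-fold to 2.69-fold, so Control 4 did not mark out all 4. tRNA-Met, Pro, Gln, Arg, Ala, OTHER and Leu were high in Kat2a cKO 5. Kat2a cKO 6 was high in part of the names too, among them OTHER, tRNA-Met, Gln and Arg. There 33 of the 139 tested rows were at least 1.5-fold above the median of the other 5 Kat2a cKO libraries, against 14.8% of all rows. tRNA-Asn, Ser and Thr were high in neither Kat2a cKO 4 nor Kat2a cKO 5, though tRNA-Ser was at 1.91-fold in Control 4. These 3 sets were made after the values were seen and are used only to order the description.

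tRNA-Tyr, the carrier of tyrosine, had the widest range. Its summed rows had 14.7, 26.8, 32.8, 915, 44.3 and 39.9 CPM in Kat2a cKO libraries 1 to 6, and 14.8, 11.2, 51.6, 292, 23.3 and 16.6 CPM in Control libraries 1 to 6. The library numbered 4 was the highest in both groups, and the remaining 5 libraries of each group overlapped. Kat2a cKO 4 lay 27.9-fold above the median of the other 5 Kat2a cKO libraries, and Control 4 lay 17.6-fold above that of the other 5 Control libraries. The log2 fold change was 1.38 ± 1.11 (SE), adjusted p = 0.905. It was -1.10 without Kat2a cKO 4, 2.92 without Control 4 and 0.44 without both.

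The same libraries stood out in single tRNA-Tyr rows. All 5 tRNA-Tyr rows are listed in 2 segments, as for genes with an intron, and in mammals tRNA-Tyr genes are known to carry one. The most abundant row, on chromosome 5 (contig 3, positions 548460 to 548548, build not stated), had 896 reads in Kat2a cKO 4 and 6 to 69 in the other Kat2a cKO libraries, against 360 reads in Control 4 and 6 to 35 in the other Control libraries. All 4 tested tRNA-Tyr rows were at least 1.5-fold above the median of the other 5 libraries in both libraries numbered 4. Row 1 was 37.1-fold above it in Kat2a cKO 4 and 22.2-fold in Control 4, while row 4 was 5.87-fold above it in Kat2a cKO 4 and 4.55-fold in Control 4.

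In tRNA-Ile library 4 was again the highest of both groups, at a smaller size. Its sum was 318 CPM in Kat2a cKO 4 and 46.8 to 58.2 CPM in the other 5 Kat2a cKO libraries, against 144 CPM in Control 4 and 27.7 to 55.6 CPM in the other 5 Control libraries. Without the libraries numbered 4 the groups overlapped. The log2 fold change was 0.71 ± 0.55 (SE), adjusted p = 0.905, and was -0.17 without Kat2a cKO 4, 1.20 without Control 4 and 0.32 without both. The 2 tested tRNA-Ile rows, each in a single segment, were 7.48-fold and 7.82-fold above the median of the others in Kat2a cKO 4, and 3.67-fold and 3.51-fold in Control 4.

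tRNA-Phe and tRNA-Trp, carriers of aromatic amino acids like tRNA-Tyr, were high in Kat2a cKO 4 and only modestly so in Control 4. The tRNA-Phe sum was 201 CPM in Kat2a cKO 4 and 20.1 to 49.6 CPM in the other Kat2a cKO libraries, against 69.3 CPM in Control 4 and 15.9 to 48.3 CPM in the other Control libraries. The tRNA-Trp sum was 103 CPM in Kat2a cKO 4 and 4.69 to 31.3 CPM in the other Kat2a cKO libraries, against 44.4 CPM in Control 4 and 17.7 to 30.5 CPM in the other Control libraries. In both names library 4 was the highest of each group. The log2 fold change of tRNA-Phe was 0.64 ± 0.54 (SE), adjusted p = 0.905, and -0.22 without Kat2a cKO 4. That of tRNA-Trp was 0.22 ± 0.51 (SE), adjusted p = 0.922, and -0.54 without Kat2a cKO 4. tRNA-Trp row 2 overlaps the row of LOC100503982, which had 248 reads against 211 for the tRNA row, so their reads cannot be told apart.

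**Figure D2:**
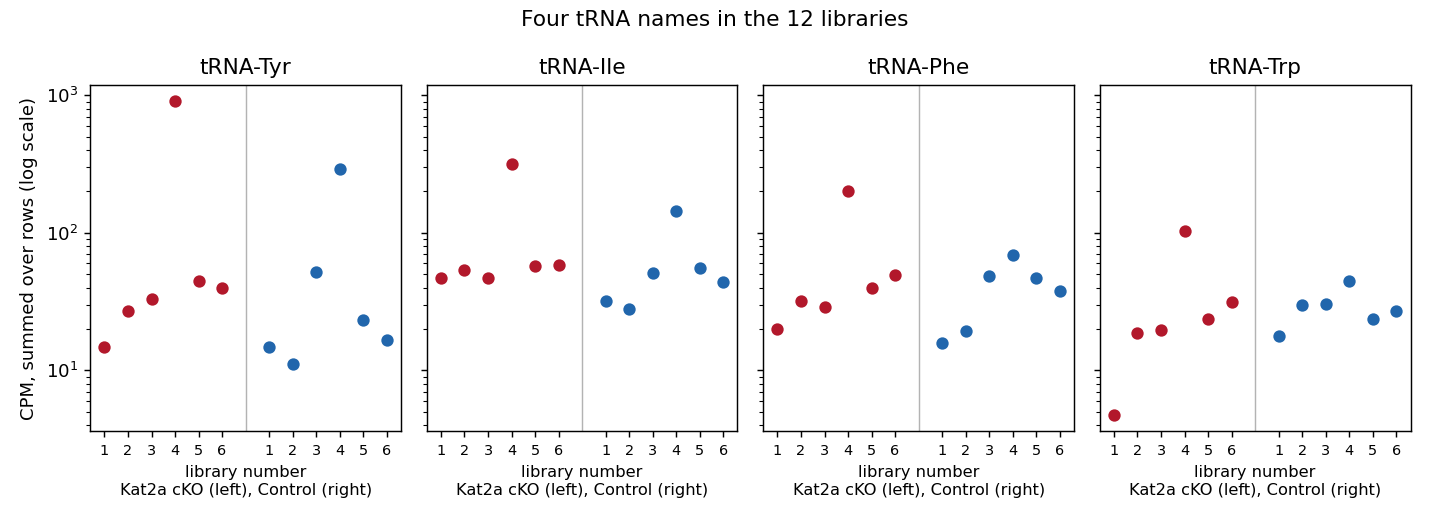
Summed level of tRNA-Tyr, Ile, Phe and Trp (y axis, CPM, log scale) in each library (x axis, library number), Kat2a cKO in red on the left and Control in blue on the right. Library 4 is the highest of its group in all 4 panels, from 915 CPM in Kat2a cKO 4 and 292 CPM in Control 4 for tRNA-Tyr to 103 CPM in Kat2a cKO 4 and 44.4 CPM in Control 4 for tRNA-Trp.

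The excess in libraries numbered 4 covered part of the tRNA rows. Among the 139 tested rows, 22 were at least 1.5-fold above the median of the other 5 libraries of their group in both Kat2a cKO 4 and Control 4, against 5.12% of all 860 rows. They were all 4 of tRNA-Tyr, both of tRNA-Ile, 2 of 4 of tRNA-Phe, 2 of 5 of tRNA-Trp, 3 each of tRNA-Arg and tRNA-Ala, 2 each of tRNA-Met and tRNA-Thr, and 1 each of tRNA-Leu and OTHER. The same count was 19 for the libraries numbered 5, against 3.95% of all rows, and 2 for those numbered 3, against 0.581%. It was 0 for those numbered 1, 2 and 6, against 7.44% of all rows for number 1, 1.395% for number 2 and 0.581% for number 6. In Control 4 the other names were also above their group, by 1.35-fold to 2.69-fold, whereas in Kat2a cKO 4 they were at 0.712-fold to 1.62-fold of it. The 7 other tRNA names were at 0.813-fold to 1.20-fold in Kat2a cKO 4 and at 1.25-fold to 1.86-fold in Control 4.

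Among tRNA-Arg rows the excess in library 4 was uneven. The 5 tRNA-Arg rows in 2 segments summed to 154 CPM in Kat2a cKO 4 and 26.2 to 84.1 CPM in the other Kat2a cKO libraries, against 92.3 CPM in Control 4 and 29.8 to 47.9 CPM in the other Control libraries. They were thus 3.04-fold above the median of the others in Kat2a cKO 4 and 2.23-fold in Control 4. Row by row these 5 ran between 0.591-fold (row 20) and 5.60-fold (row 9) in Kat2a cKO 4, and between 1.51-fold (row 20) and 3.23-fold (row 9) in Control 4. The 16 tRNA-Arg rows in a single segment were, summed, at 0.955-fold in Kat2a cKO 4 and 1.34-fold in Control 4, but rows 16 and 17 among them had the highest Control 4 ratios of all tRNA-Arg rows, 3.49-fold and 3.42-fold. The 4 tRNA-Leu rows in 2 segments did not set Kat2a cKO 4 apart, at 1.09-fold in Kat2a cKO 4 and 2.14-fold in Control 4. Of the 6 miRNA lists, the oligodendrocyte list alone had its highest Kat2a cKO value in library 4, and its part in these levels was not tested.

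In Kat2a cKO 5 another set of amino acids was high. Of the 139 tested rows, 75 were at least 1.5-fold above the median of the other 5 Kat2a cKO libraries in Kat2a cKO 5, against 15.0% of all 860 rows. They included all 10 rows of tRNA-Gln, all 5 of tRNA-Pro, 19 of 21 of tRNA-Arg, 15 of 16 of tRNA-Leu, 8 of 9 of tRNA-Met and 10 of 13 of tRNA-Ala. None of the tested rows of tRNA-Asn, Ile, Phe, Trp and Tyr was among them, and 4 of 29 of tRNA-Ser and 2 of 14 of tRNA-Thr were. Kat2a cKO 5 was also the library with the largest misc RNA total and the largest share of tRNAs in it, 31.9%, against 16.8% to 29.6% in the other Kat2a cKO libraries and 13.1% to 29.8% in Control libraries. The part of these in the result was not tested. The 7 other tRNA names were at 1.05-fold to 1.77-fold in Kat2a cKO 5. In Control 4, 79 of the 139 rows were at least 1.5-fold above the median of the other 5 Control libraries, against 16.9% of all rows.

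tRNA-Met, which serves both the start codon and internal methionine codons, had the highest ratio of the names in that library. Its sum was 454, 844, 948, 1331, 4021 and 1845 CPM in Kat2a cKO libraries 1 to 6, and 1243, 443, 1129, 1728, 1303 and 571 CPM in Control libraries 1 to 6. Kat2a cKO 5 was 4.24-fold above the median of the other Kat2a cKO libraries and above every Control library, as was Kat2a cKO 6, and the other 4 lay within the Control range. The log2 fold change was 0.56 ± 0.46 (SE), adjusted p = 0.905, and 0.02 without Kat2a cKO 5. Its most abundant row had 2017 CPM in Kat2a cKO 5 and 146 to 678 CPM in the other Kat2a cKO libraries, against 120 to 682 CPM in Control. The 6 tRNA-Met rows of 73 bases were 3.43-fold above the median of the others in Kat2a cKO 5, and the 4 rows of 72 bases were 2.54-fold above it.

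tRNA-Gln, the most abundant of the names, had a sum of 2065 to 12250 CPM in Kat2a cKO (median 4123) and of 2464 to 7812 CPM in Control (median 3652). Kat2a cKO 5 was its highest library, 3.19-fold above the median of the other Kat2a cKO libraries, and the 5 others lay within or below the Control range. Control 4 was the highest Control library, 2.20-fold above the median of the others. The log2 fold change was 0.32 ± 0.40 (SE), adjusted p = 0.905, and -0.08 without Kat2a cKO 5.

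tRNA-Pro and tRNA-Arg followed the same library. The tRNA-Pro sum was 59.6 to 249 CPM in Kat2a cKO (median 79.8) and 48.9 to 132 CPM in Control (median 84.8). The tRNA-Arg sum was 232 to 1233 CPM in Kat2a cKO (median 477) and 243 to 654 CPM in Control (median 430). For both names the group medians were close and the ranges overlapped, with Kat2a cKO 5 the highest. The log2 fold changes were 0.29 ± 0.35 for tRNA-Pro and 0.31 ± 0.36 for tRNA-Arg (SE, adjusted p = 0.905 for both). Without Kat2a cKO 5 that of tRNA-Pro was -0.15 and that of tRNA-Arg -0.08. tRNA-Arg row 12 overlaps the row of Gm10616, with 480 reads at the tRNA row and 489 at Gm10616, and these reads cannot be told apart.

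tRNA-Ala summed to 52.9 to 216 CPM in Kat2a cKO (median 93.9) and 74.9 to 132 CPM in Control (median 93.1), with 1 Kat2a cKO library above the Control range. Its log2 fold change was 0.15 ± 0.29 (SE), adjusted p = 0.912, and -0.17 without Kat2a cKO 5. The name OTHER summed to 74.3 to 286 CPM in Kat2a cKO (median 161) and 94.3 to 242 CPM in Control (median 158), with a log2 fold change of 0.08 ± 0.36 (SE), adjusted p = 0.946. Its highest library was Kat2a cKO 6, with 286 CPM, next to 276.5 CPM in Kat2a cKO 5, and the log2 fold change was -0.11 without Kat2a cKO 6 and -0.09 without Kat2a cKO 5. Both ranges held the other group's median. Among the tRNA-Ala rows, row 1 was high in Kat2a cKO 5, with 241 reads in Kat2a cKO 5 and 8 to 44 in the other Kat2a cKO libraries, against 8 to 45 reads in Control libraries.

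tRNA-Leu held the 2 rows with an unadjusted p under 0.05. Its sum was 1305 to 3319 CPM in Kat2a cKO (median 1638) and 447 to 3156 CPM in Control (median 1294), with a log2 fold change of 0.25 ± 0.36 (SE), adjusted p = 0.906, and 0.0086 without Kat2a cKO 5. The highest library was Kat2a cKO 5 in one group and Control 4 in the other. The groups overlapped, though Control 1, 2 and 5, at 1175, 447 and 1127 CPM, lay below every Kat2a cKO library. Kat2a cKO 5 alone lay above every Control library. Row 8, on chromosome 11 (contig 1, positions 34442621 to 34442702), had 28.3, 16.1, 19.2, 14.8, 34.7 and 13.7 CPM in Kat2a cKO libraries 1 to 6, and 13.3, 7.995, 15.7, 20.3, 10.3 and 12.6 CPM in Control libraries 1 to 6. All 6 Kat2a cKO libraries were above the Control mean of 13.4 CPM and 2 were above the highest Control library. Its log2 fold change was 0.65 ± 0.28 (SE), unadjusted p = 0.0396 and adjusted p = 0.718.

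Row 10 of tRNA-Leu, also on chromosome 11, had values close to those of row 8, and rows of a name may share reads. It had 12.3 to 30.5 CPM in Kat2a cKO (median 16.3) and 7.33 to 19.2 CPM in Control (median 11.6), with a log2 fold change of 0.63 ± 0.28 (SE), unadjusted p = 0.0416 and adjusted p = 0.718. Leaving out each library in turn kept both rows on the Kat2a cKO side, at 0.43 to 0.78 for row 8 and 0.43 to 0.76 for row 10. Row 16 of tRNA-Leu, also among the 10 rows with the smallest p, had 3 to 22 reads per library in Kat2a cKO and 2 to 13 in Control. The other rows with small p were tRNA-Ala rows 2, 3 and 9, tRNA-Arg rows 15, 16 and 17 and tRNA-Ser row 22, with adjusted p = 0.893 for each. tRNA-Leu row 7 overlaps the row of B230208H11Rik, with 1378 reads at the tRNA row and 1484 at B230208H11Rik, and these reads cannot be told apart either.

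**Figure D3:**
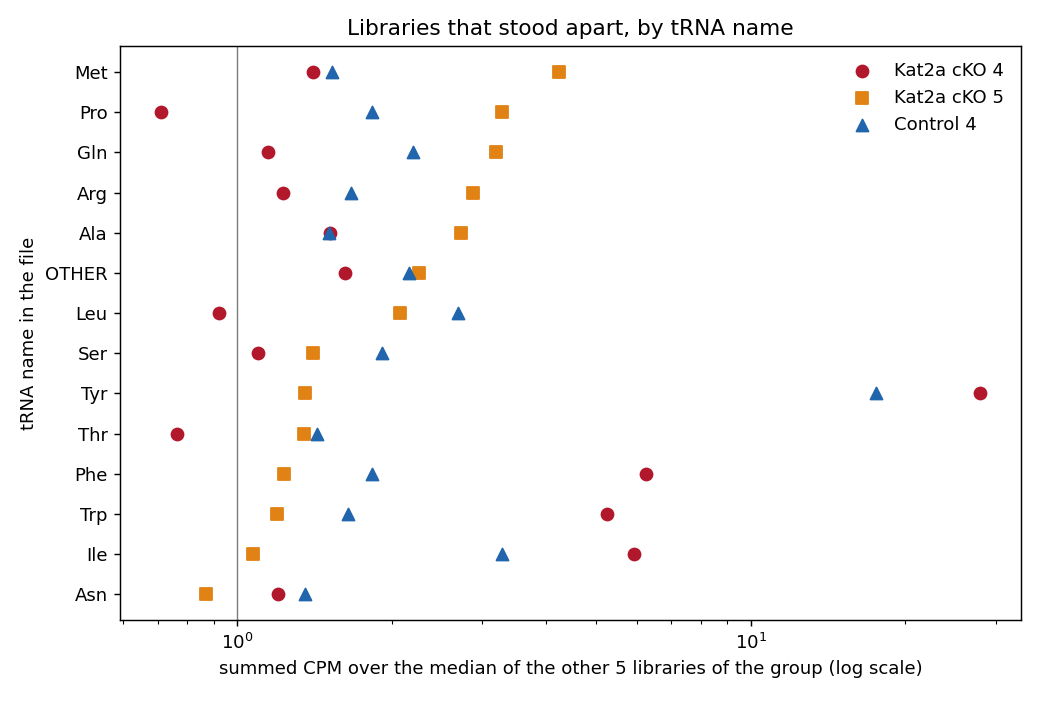
Summed level of each tRNA name (y axis) in 3 libraries, as a ratio to the median of the other 5 libraries of the same group (x axis, log scale, with a line at 1). Circles are Kat2a cKO 4, squares Kat2a cKO 5 and triangles Control 4. tRNA-Tyr is at 27.9 in Kat2a cKO 4 and 17.6 in Control 4, while the squares reach 4.24 for tRNA-Met and lie at 1.41 or below for Ser, Tyr, Thr, Phe, Trp, Ile and Asn.

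tRNA-Asn, which carries the amide of aspartate, was the most abundant of the names without such a library. Its sum was 1469 to 2711 CPM in Kat2a cKO (median 2202) and 983 to 2843 CPM in Control (median 2243), and no Kat2a cKO library exceeded the Control range. The log2 fold change was 0.07 ± 0.25 (SE), adjusted p = 0.938. With Kat2a cKO 5 at 0.870-fold of the median of the others, tRNA-Asn was the only name below its group in that library.

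tRNA-Thr summed to 220 to 708 CPM in Kat2a cKO (median 597) and 164 to 755 CPM in Control (median 597), with a log2 fold change of 0.09 ± 0.34 (SE), adjusted p = 0.946. Its lowest libraries were Kat2a cKO 3 and Control 1, and the ranges coincided almost fully. tRNA-Ser summed to 207 to 484 CPM in Kat2a cKO (median 361) and 201 to 545.9 CPM in Control (median 338), with a log2 fold change of 0.04 ± 0.25 (SE), adjusted p = 0.956.

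The tRNA-Ser rows were of unlike length. Of 41 rows, 27 were shorter than 80 bases, although tRNA-Ser normally carries a long variable arm, and the file lists 51 tRNA-Ser rows where RefSeq (GRCm38.p6) names 22 tRNA-Ser genes. The 14 longer rows summed to 150 to 293 CPM in Kat2a cKO (median 239) and 110 to 332 CPM in Control (median 179). The 27 shorter rows summed to 62.8 to 163 CPM in Kat2a cKO (median 147) and 76.6 to 185 CPM in Control (median 150). Both kinds overlapped between groups. tRNA-Ser row 22, of 75 bases on chromosome X, was the row with the lowest log2 fold change of all 139, -0.53 ± 0.34 (SE), adjusted p = 0.893. It had 1.38 to 6.37 CPM in Kat2a cKO and 3.83 to 9.99 CPM in Control, and all 6 Kat2a cKO libraries were below the Control mean of 6.52 CPM.

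**Figure D4:**
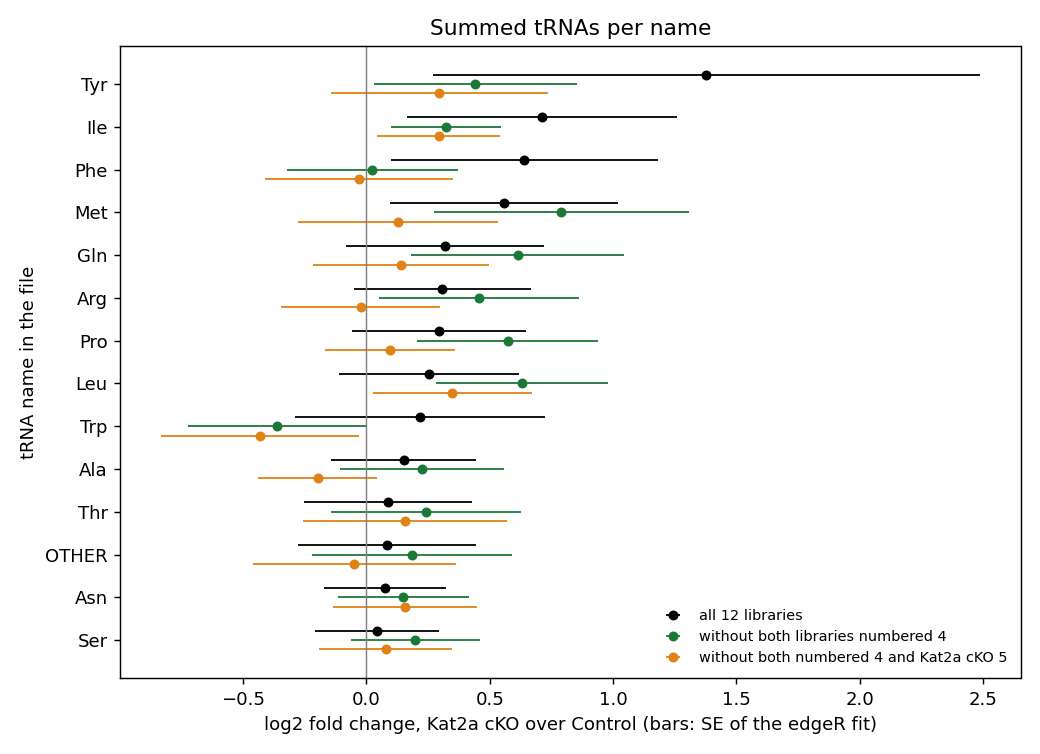
Log2 fold change of Kat2a cKO over Control for the sum of each tRNA name (x axis), with the SE of the edgeR fit as bars. Black shows all 12 libraries, green the fit without both libraries numbered 4, and orange the fit without those and Kat2a cKO 5. The black points run between 0.04 for tRNA-Ser and 1.38 for tRNA-Tyr, and the orange points between -0.43 for tRNA-Trp and 0.35 for tRNA-Leu.

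The libraries that stood apart were picked as the extremes for these same names, so leaving them out was bound to narrow the spread between amino acids. More Kat2a cKO than Control libraries were dropped, and nothing is concluded from the narrowing. Without both libraries numbered 4 and Kat2a cKO 5, 9 of 14 sums were on the Kat2a cKO side, with log2 fold changes between -0.43 and 0.35 and adjusted p between 0.931 and 0.984. Of the single rows, 114 of 143 were on that side, with a median of 0.18 against 0.06 over all rows. In none of these fits did a row or a sum pass the test. An unadjusted p under 0.05 was reached by 4 of 141 tRNA rows without both libraries numbered 4, where 71 of all 859 rows reached it, and by 3 of 143 without these and Kat2a cKO 5, where 60 of all 880 did. No sum reached it in either fit.

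Genes that make, charge, modify or cut tRNAs could be read only through fragments of their mRNAs in the table of all RNAs. Of 93 listed genes 92 had rows, 120 in all, and 6 rows of 5 genes had enough reads to be tested. edgeR called 0 of the 6, against 0.0% of all 1846 rows tested, and DESeq2 called 0 of the 6, against 10 of all 1846. In edgeR 0 of the 6 had an unadjusted p under 0.05, against 4.39% of all rows. The fitted level was higher in Kat2a cKO for 3 of the 6, against 47.7% of all rows. Pop1, a protein subunit of RNase P, which trims the leading end of tRNA precursors, had 2 transcript rows with log2 fold changes of -0.46 ± 0.30 and 0.67 ± 0.60 (SE). Eprs, the synthetase that charges tRNAs with glutamate and proline, was at 0.10 ± 0.42, and Xpot, the tRNA export receptor, at -0.05 ± 0.29. The 8 listed genes of tRNA cleavage and splicing had 177 reads in Kat2a cKO and 145 in Control and no tested row. These totals are not scaled to library size and do not compare levels.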

How the data were processed

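The 6 Kat2a cKO and 6 Control small RNA libraries from CA1 were analysed from 3 tables. Per the file headers, each deposited table holds read counts by the authors with no normalization, of 495 miRNAs, 4645 misc RNA rows and 35230 transcript rows. Base calling used CASAVA, per the submitters' processing notes. Per the labels' protocols, libraries were cut from a gel at 150 bp. The aligner, the genome build and the rule for reads matching several rows are not given in the sources used here. Positions are those of numbered contigs in the misc RNA table. 1 miRNA row without a name was left out. The transcript columns could be assigned to groups but not to library numbers. Rows of 26081 transcripts were matched to symbols by accession in RefSeq (GRCm38.p6).

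Rows of 1 class and name with identical counts in all libraries were kept once. Of 284 tRNA rows, 144 fell in 42 sets of identical rows, and 173 would remain if rows were merged across names. Of the 182 kept, 8 had no read. Since shared reads appear to be counted at every copy, a sum over rows is not free of repeats. Counts were fitted on the whole table in edgeR 4.0.16 (R 4.3.3) after filterByExpr and TMM scaling, with group as the term of a quasi-likelihood model and two-sided tests adjusted by Benjamini-Hochberg with a threshold of 0.05. CPM values are TMM-scaled, and row and sum fits have their own factors. Without molecular identifiers, reads from PCR are not independent molecules.

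The members, lists and tests were chosen with earlier results of these data known. Named were every tRNA name by its sum, the 10 tested rows with the smallest p, the most abundant row of each name, and the 4 pathway rows with the smallest p. Libraries were called high at 1.5-fold or more over the median of the other 5, a rule chosen after seeing the data. The alternatives tried were DESeq2 1.42.0, limma 3.58.1 voom with quality weights, RLE scaling, library sizes from the miRNA plus misc RNA totals, a filter of 10 counts in 6 libraries or none, identical rows retained, a replicate block, sets of replicate numbers, and omission of single libraries. Chosen after seeing the data were the most abundant row in place of the sum, and fits without both libraries numbered 4 and without these and Kat2a cKO 5. In simulated counts drawn for the misc RNA rows (831 tested, 200 changed), 15.4%, 54.7% and 98.4% of rows changed 1.5-fold, 2-fold and 4-fold were recovered, with 2 false calls of 107. With tRNAs summed per name (632 tested) the shares were 26.2%, 60.3% and 95.3%, with 3 false calls of 119. For the transcript rows (1571 tested) they were 0%, 8% and 77.1%, with 0 false calls of 41. The draws were independent between rows, without shared reads or a library high in many rows, and changed rows came from the whole table. The shares therefore do not give the recovery for the tRNA rows or sums described here. tRNA sequences and anticodons were not used here.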

Additional observations from a re-analysis of the deposited data

Results flagged for a closer look

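In 78 groups of 6 libraries checked, 21 had a highest or lowest library far from the nearest other. The gap exceeded Dixon's 95% critical share of the group's range. For normally distributed values that rule flags about 1 in 20 groups, or 3.9 of 78. The CPM values were not transformed and some rows were named for a small p, so 3.9 is not a chance level for these groups. Sums and their most abundant rows share reads, so the 21 are not independent, and no lowest library was among them.

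Kat2a cKO 4 was the separate library for 8 of them. As a share of the group's range its gap was 0.967 for the tRNA-Tyr sum and 0.975 for tRNA-Tyr row 1, 0.958 for the tRNA-Ile sum and 0.965 for tRNA-Ile row 1, 0.837 for the tRNA-Phe sum and 0.911 for tRNA-Phe row 1, and 0.729 for the tRNA-Trp sum and 0.642 for tRNA-Trp row 1. Control 4 was separate in 5, with gaps of 0.856 for the tRNA-Tyr sum, 0.907 for tRNA-Tyr row 1, 0.76 for the tRNA-Ile sum, 0.789 for tRNA-Ile row 1 and 0.682 for tRNA-Arg row 16.

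Kat2a cKO 5 was separate in the other 8. Its gap was 0.776 for the tRNA-Leu sum, 0.758 for the tRNA-Pro sum and 0.76 for tRNA-Pro row 1. For single rows it was 0.84 for tRNA-Ala row 1, 0.639 for tRNA-Arg row 1, 0.705 for tRNA-Arg row 16, 0.707 for tRNA-Arg row 17 and 0.716 for tRNA-Met row 1.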

How the results depend on the processing

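No tRNA row and no sum of these names passed under any alternative run, and no pathway row did. Signs were less stable than calls, and the cause of a reversal was not tested. Among libraries numbered 1 to 3 alone, log2 fold changes turned to -0.33 for the tRNA-Ala sum, -0.0387 for Arg, -0.32 for Gln, -0.23 for Met, -0.35 for OTHER, -0.0743 for Pro and -0.69 for Trp. In the row 1 of each name they turned to -0.32 for Ala, -0.31 for Arg, -0.35 for Gln, -0.55 for Met, -0.42 for OTHER, -0.11 for Pro, -0.57 for Trp and -0.0039 for Tyr. Among libraries numbered 4 to 6 alone, Asn row 1 was at -0.0231, and with these sets as a covariate the OTHER sum was at -0.0442 and the Trp sum at -0.0105. With voom and quality weights the sums of Asn (-0.18), OTHER (-0.17), Phe (-0.18), Ser (-0.10), Thr (-0.22), Trp (-0.45) and Tyr (-0.0755) turned, as did Asn row 1 (-0.0218) and Thr row 1 (-0.0131). Without both libraries numbered 4 the Trp sum was at -0.36 and Trp row 1 at -0.15. Without these and Kat2a cKO 5, the sums of Ala (-0.20), Arg (-0.0241), OTHER (-0.0496), Phe (-0.0312) and Trp (-0.43) and row 1 of Ala (-0.20), Arg (-0.14) and Trp (-0.35) turned.

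With each library left out in turn, the log2 fold changes of the sums ranged between -0.17 and 0.28 for Ala, -0.0796 and 0.46 for Arg, -0.0693 and 0.19 for Asn, -0.0847 and 0.55 for Gln, -0.17 and 1.20 for Ile, 0.0086 and 0.58 for Leu, 0.0186 and 0.74 for Met, -0.11 and 0.23 for OTHER, -0.22 and 0.87 for Phe, -0.15 and 0.45 for Pro, -0.0812 and 0.20 for Ser, -0.10 and 0.25 for Thr, -0.54 and 0.43 for Trp, and -1.10 and 2.92 for Tyr. For row 1 they ranged between -0.43 and 0.61 for Ala, -0.29 and 0.46 for Arg, -0.0405 and 0.49 for Gln, -0.13 and 1.25 for Ile, -0.0762 and 1.04 for Met, -0.0294 and 0.29 for OTHER, -0.24 and 1.12 for Phe, -0.0826 and 0.45 for Pro, -0.0009 and 0.35 for Thr, -0.25 and 0.37 for Trp, and -1.28 and 3.10 for Tyr.

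Libraries of the same number were not taken as pairs, since the labels name nothing they share and their deviations correlated between -0.143 and 0.301 over all rows, where only numbers 1 and 4 matched best with themselves. Over the tRNA rows described here the correlation was 0.63 for number 4 and between -0.125 and 0.216 for the others. With the replicate block, 0 tRNA rows and 0 sums passed. An unadjusted p under 0.05 was reached by 6 of 139 tRNA rows, where 68 of all 860 rows reached it, and by 2 of 14 sums, where 46 of all 661 rows did. The Trp sum was at -0.22.

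With the most abundant row of each name in place of the sum, the 14 names took 6.38% of tRNA counts over all libraries, against 4.85% for the kept rows. Library sizes set to the miRNA plus misc RNA totals moved the median log2 fold change of all rows to -0.05, against 0.05 with TMM factors, and 115 of 138 tRNA rows were still higher in Kat2a cKO. Depth limits rows of few reads most: 43 of 182 rows were not tested.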
